A study of Mus musculus with 4 samples.

Results

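A group of 8 genes for proneural and neuronal differentiation factors of the basic helix-loop-helix (bHLH) family was followed in embryonic mouse brain: Neurog1, Neurog2, Neurod1, Neurod2, Neurod4, Neurod6, Nhlh1 and Bhlhe22. They were chosen by gene name, with earlier results of these data known. All 8 were found in both deposited tables, among 19500 genes listed in both, and all 8 were among the 15933 genes tested. RNA enriched with oligo(dT) was sequenced from brain at embryonic day 13 of mice on a C57BL/6 background. The 2 Wt1_CKO samples carry only that genotype label, the usual abbreviation for a conditional knockout, here of the zinc finger transcription factor gene Wt1. The 2 Wt1_flfl samples are labelled as wild type with floxed Wt1 alleles, so these controls carry the floxed alleles too. Neither the Cre line, the cells it acts in, the part of the brain taken nor any pooling of embryos is given in the labels. P-values therefore measure only the spread between these samples, which may be technical. As the Wt1 transcript is not analysed here, nothing measured checks the genotype of each library.

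Proneural factors pair with ubiquitous bHLH partners called E proteins, bind the short DNA motif CANNTG (the E-box) and switch progenitors towards neuronal fate. In the dorsal forebrain the neurogenins act in dividing progenitors and raise Notch ligands. They are followed by Neurod4, Neurod1 and Nhlh1 in cells leaving the cycle, and by Neurod2, Neurod6 and Bhlhe22 in young glutamatergic neurons. Id proteins hold back E proteins, and Hes factors repress proneural genes in neighbouring cells.

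The libraries held 17704698 and 17159450 listed counts in Wt1_CKO, against 16219310 and 17170578 in Wt1_flfl. Levels are given as CPM (the count of a gene per 1000000 counts), for single genes on library sizes scaled by edgeR's TMM method and for sums over a list on listed totals. The list of 8 dorsal telencephalic markers summed to 1776 and 1510 CPM in Wt1_CKO and to 1698 and 1308 CPM in Wt1_flfl. The list of midbrain and hindbrain markers summed to 1.52 and 1.34 CPM on listed totals in Wt1_CKO and to 1.48 and 2.74 CPM in Wt1_flfl. Of its 10 genes, 4 were listed in either table and 1 of them (Gata2) was tested, and the other 6 genes were not analysed here. The samples thus held abundant RNA of forebrain markers and little of the caudal ones measured. The erythroid list differed by sample number, with 684 and 1704 CPM on listed totals in Wt1_CKO replicates 1 and 2 and 737 and 1666 CPM in Wt1_flfl replicates 1 and 2.

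The coding stretch for the DNA-contacting basic region and the start of the first helix shows how alike the 8 genes are, which bears on whether reads can be told apart. It is given below from GENCODE M21 on GRCm38, 5′ to 3′ on the gene's own strand, with capitals at the 18 of 69 bases that are the same in all 8 genes.
Neurog1 (chr13:56251582-56251650, minus strand): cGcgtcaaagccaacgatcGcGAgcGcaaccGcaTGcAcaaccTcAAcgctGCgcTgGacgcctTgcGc
Neurog2 (chr3:127634068-127634136, plus strand): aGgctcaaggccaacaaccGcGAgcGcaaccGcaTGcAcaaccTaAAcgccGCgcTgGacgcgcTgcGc
Neurod1 (chr2:79454663-79454731, minus strand): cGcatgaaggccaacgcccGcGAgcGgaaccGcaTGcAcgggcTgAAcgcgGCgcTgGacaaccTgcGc
Neurod2 (chr11:98327899-98327967, minus strand): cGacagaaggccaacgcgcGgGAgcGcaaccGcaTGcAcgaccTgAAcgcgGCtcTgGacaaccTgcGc
Neurod4 (chr10:130271071-130271139, minus strand): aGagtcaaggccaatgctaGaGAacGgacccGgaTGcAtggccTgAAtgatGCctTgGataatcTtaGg
Neurod6 (chr6:55679297-55679365, minus strand): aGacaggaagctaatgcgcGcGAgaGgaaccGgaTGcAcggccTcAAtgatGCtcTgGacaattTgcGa
Nhlh1 (chr1:172054001-172054069, minus strand): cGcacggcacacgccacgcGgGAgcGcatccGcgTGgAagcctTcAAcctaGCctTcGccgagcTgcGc
Bhlhe22 (chr3:18055439-18055507, plus strand): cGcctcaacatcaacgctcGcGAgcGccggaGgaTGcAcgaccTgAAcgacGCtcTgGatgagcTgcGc
Neurod1 and Neurod2 shared 87.0% of these bases and Neurog1 and Neurog2 shared 85.5%. Nhlh1 and Neurod4 were the least alike, at 43.5%. Over whole transcripts the longest run of bases identical between any 2 of the 8 was 26, in Neurog1 and Neurog2, and the next was 25, in Neurod1 and Neurod2. No stretch of 50 bases of 7 of the genes occurred in a transcript of another gene, on either strand. For Neurod1, 259 of 2680 such stretches (9.66%) also lay in transcripts of Cerkl, which overlaps it on the same strand, and Gm26755, which overlaps it on the opposite strand. The labels do not say whether strand was kept, which could separate reads of Gm26755 but not those of Cerkl. The Neurod1 count is uncertain to that extent.

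Windows of 250 bases before the RefSeq start site (GRCm38.p6) were matched for 7 of the 8 genes, all but Bhlhe22. Those of the 3 genes with the highest levels per length are given here, with each CANNTG in capitals.
Neurod6 (chr6:55681264-55681513, minus strand): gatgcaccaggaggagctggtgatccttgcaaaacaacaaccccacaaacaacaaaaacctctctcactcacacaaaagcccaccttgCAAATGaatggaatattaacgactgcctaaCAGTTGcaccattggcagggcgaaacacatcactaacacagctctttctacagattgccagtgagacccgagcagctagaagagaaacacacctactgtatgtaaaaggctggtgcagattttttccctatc
Neurod2 (chr11:98329646-98329895, minus strand): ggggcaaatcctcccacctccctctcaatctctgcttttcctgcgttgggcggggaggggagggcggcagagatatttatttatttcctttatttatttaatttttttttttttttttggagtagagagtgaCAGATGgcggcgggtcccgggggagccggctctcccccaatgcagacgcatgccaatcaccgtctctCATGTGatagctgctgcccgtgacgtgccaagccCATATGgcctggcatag
Neurog2 (chr3:127632886-127633135, plus strand): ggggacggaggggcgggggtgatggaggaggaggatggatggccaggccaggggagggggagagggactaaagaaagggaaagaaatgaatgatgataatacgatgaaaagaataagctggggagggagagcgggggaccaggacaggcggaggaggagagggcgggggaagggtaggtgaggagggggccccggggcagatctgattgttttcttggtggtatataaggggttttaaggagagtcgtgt
The Neurod6 window held 2 of them, with first bases 162 and 132 bases before the start. The Neurod2 window held 3, with first bases 118, 51 and 17 bases before the start, and the Neurog2 window held 0. As a pattern CANNTG reads the same on both strands, and each narrower form named next is also counted in it. It was found for 4 of the 7 genes, Neurod1 and Nhlh1 being the others, against 66.2% of 32851 windows of the same length. The form CAGATG, searched on both strands, was found for Neurod2 and Nhlh1, against 14.4% of all windows. The form CATATG was found for Neurod1 and Neurod2, against 3.46% of all windows. The form CAGCTG was found for 0 of the 7, against 13% of all windows. These matches describe letters in a window and are not evidence of binding.

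The levels of the 8 genes spanned a wide range when expressed per kilobase of exon (CPM divided by the summed exon length). Neurod6, the gene of young cortical projection neurons, was the highest at 262 ± 131 CPM per kb in Wt1_CKO and 211 ± 96.9 CPM per kb in Wt1_flfl (SD, n = 2 each). Neurog2, the main dorsal telencephalic neurogenin, had 103 ± 6.55 CPM per kb in Wt1_CKO and 95.2 ± 14.9 CPM per kb in Wt1_flfl, and Neurod2 had 86.2 ± 20.2 CPM per kb in Wt1_CKO and 81.4 ± 25.5 CPM per kb in Wt1_flfl (SD, n = 2 each). Those 3 genes stood above the other 5 in all 4 libraries. Nhlh1, Bhlhe22, Neurod1 and Neurog1 followed, with means over the 4 libraries of 21.4, 17.2, 17.0 and 11.2 CPM per kb, and Neurod4 was lowest at 2.2 CPM per kb.

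Neighbours in this order were not always separated. The ranges over the 4 libraries overlapped for Neurog2 and Neurod2, for Nhlh1 and Bhlhe22, for Bhlhe22 and Neurod1, and for Neurod1 and Neurog1. Bhlhe22 was above Neurod1 per kb in only 2 of the 4 libraries, both of them replicate 2. Neurod6 exceeded Neurog2 in every library, by 3.29 and 1.72 times in Wt1_CKO and by 2.64 and 1.68 times in Wt1_flfl on the per kb scale. Neurog2 exceeded its paralog Neurog1 by 7.31 to 10.8 times over the 4 libraries on the same scale. Within the summed level of the 8 genes per kb, Neurod6 took 55.0% and 42.0% in Wt1_CKO replicates 1 and 2 and 49.9% and 41.0% in Wt1_flfl replicates 1 and 2. The share of Neurog2 ran the other way, with 16.7% and 24.5% in Wt1_CKO replicates 1 and 2 and 18.9% and 24.4% in Wt1_flfl replicates 1 and 2. In these bulk samples, fewer cells of a type and less RNA per cell cannot be told apart.

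**Figure D1:**
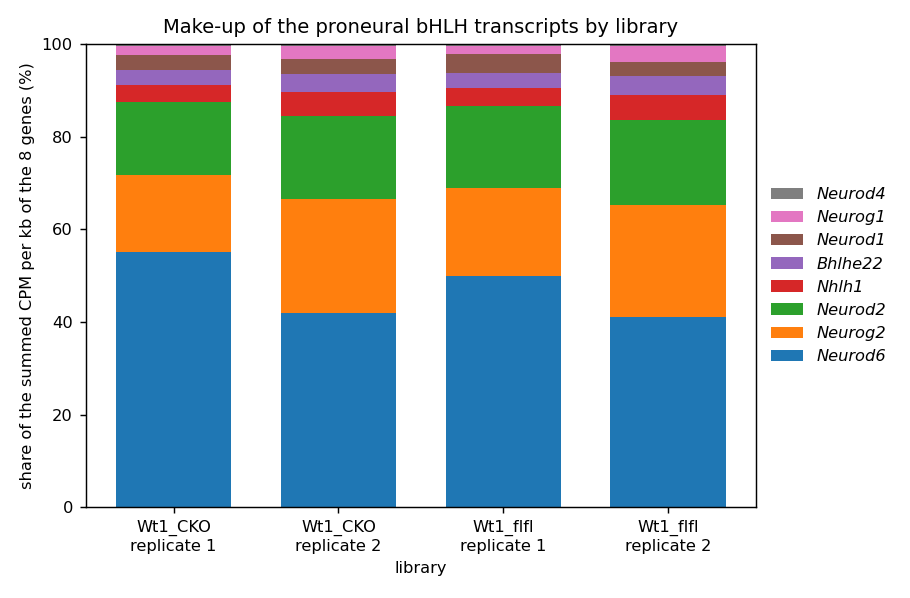
Share of each gene in the summed CPM per kb of the 8 genes (y axis, %) in each of the 4 libraries (x axis), stacked by gene. Neurod6 takes 55.0% and 49.9% in the replicate 1 libraries of Wt1_CKO and Wt1_flfl, and 42.0% and 41.0% in the replicate 2 libraries. Neurod4 takes at most 0.492% and is barely visible at the top.

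Wt1_CKO was compared with Wt1_flfl for transcript levels of these genes, which do not by themselves measure neuronal differentiation of progenitors. None of the 8 genes passed edgeR's quasi-likelihood test at an adjusted p of 0.05, where 0.00628% of all tested genes passed. None reached an unadjusted p of 0.05 either, against 1.56% of all tested genes, and none passed with DESeq2 or limma-voom. The fitted log2 fold change was above 0 for 8 of 8, against 51.8% of all tested genes, and its median was 0.13, against 0.01 over all tested genes. In both deposited tables the Wt1_CKO library was the higher one for 6 of the 8, against 27.0% of all tested genes, and for none was it the lower one in both, against 25.9%. In no gene did both Wt1_CKO libraries lie above both Wt1_flfl libraries, against 13.4% of all tested genes, or below them, against 13.5%. The 8 genes are not independent of each other, so these shares are a description.

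**Figure D2:**
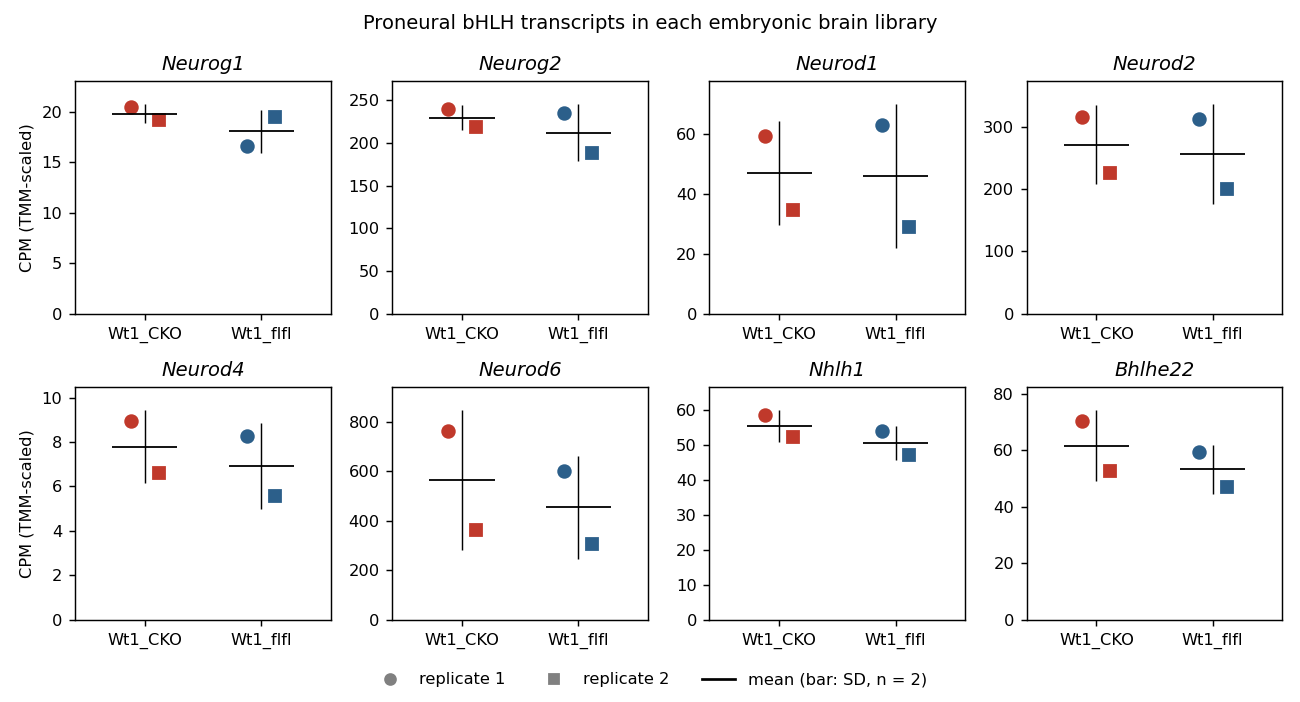
CPM on TMM-scaled library sizes (y axis, from 0) of the 8 genes in the Wt1_CKO and Wt1_flfl libraries (x axis). Circles are replicate 1 and squares replicate 2, lines are group means and bars the SD of n = 2. The ranges of the 2 genotypes overlap in each of the 8 panels, and for 7 genes both circles lie above both squares.

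Neurog2 specifies glutamatergic identity in cortical progenitors. It had 4266 and 3775 counts in Wt1_CKO, against 3784 and 3226 in Wt1_flfl, which is 240 and 219 CPM in Wt1_CKO and 236 and 189 CPM in Wt1_flfl. The Wt1_flfl replicate 2 library was the lowest, and the other 3 lay close together. Between genotypes the log2 fold change of Neurog2 came to 0.11 (SE 0.17, edgeR p 0.444, adjusted p 1). The ratio of Wt1_CKO to Wt1_flfl was 1.03 in pair 1 (the samples numbered 1), with a 95% interval of 0.988 to 1.08, and 1.17 in pair 2, with an interval of 1.12 to 1.23. These intervals are exact binomial ones that cover counting error only, on reads that are not independent molecules, and the same holds for all such ratios given here.

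Neurog1, which acts with Neurog2 in cortical progenitors and is also a determinant of cranial sensory neurons, had 364 and 330 counts in Wt1_CKO, against 266 and 334 in Wt1_flfl. That is 20.5 and 19.2 CPM in Wt1_CKO and 16.6 and 19.5 CPM in Wt1_flfl. The first Wt1_flfl library was low and the other 3 were alike. The ratio was 1.25 in pair 1 (interval 1.07 to 1.47) and 0.989 in pair 2 (0.847 to 1.16), so the 2 tables pointed in different directions. In the fit of all 4 libraries this gave a log2 fold change of 0.13 (SE 0.13, edgeR p 0.452, adjusted p 1). Neurog1 was the only one of the 8 without a shared order of the replicate numbers, at 1.07 times in replicate 1 over replicate 2 of Wt1_CKO and 0.843 times in Wt1_flfl.

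The genes of the transition out of the cycle gave small differences between genotypes. Neurod4, a factor that promotes differentiation downstream of the neurogenins, had 159 and 114 counts in Wt1_CKO, against 133 and 95 in Wt1_flfl, or 8.94 and 6.62 CPM in Wt1_CKO and 8.28 and 5.55 CPM in Wt1_flfl. Its replicate 1 libraries were the higher ones in both genotypes. With so few counts its ratios of 1.10 in pair 1 (interval 0.864 to 1.39) and 1.20 in pair 2 (0.906 to 1.59) could not be told from 1 by counting alone. Over all 4 libraries the log2 fold change was 0.17 (SE 0.35, edgeR p 0.574, adjusted p 1).

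Neurod1, a factor of intermediate progenitors and newborn neurons, had 59.1 and 34.6 CPM in Wt1_CKO, against 62.8 and 29.0 CPM in Wt1_flfl, from 1052 and 595 counts in Wt1_CKO and 1009 and 497 counts in Wt1_flfl. The libraries split by number and not by genotype. Neurod1 had the smallest log2 fold change of the 8, at 0.03 (SE 0.68, edgeR p 0.940, adjusted p 1). The ratio of Wt1_CKO to Wt1_flfl was 0.955 in pair 1 (interval 0.875 to 1.04) and 1.20 in pair 2 (1.06 to 1.35).

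Nhlh1, also called NSCL1, a short factor of newly born neurons, varied least of the transition genes, by 0.32 on the log2 scale over the 4 libraries, against 0.68 for Neurod4 and 1.11 for Neurod1. It had 1040 and 898 counts in Wt1_CKO, against 865 and 803 in Wt1_flfl, or 58.5 and 52.1 CPM in Wt1_CKO and 53.9 and 46.9 CPM in Wt1_flfl. Within each number the Wt1_CKO library was the higher, yet Wt1_CKO replicate 2 lay below Wt1_flfl replicate 1. Its ratios were 1.10 (interval 1.01 to 1.21) in pair 1 and 1.12 (1.02 to 1.23) in pair 2, with a log2 fold change of 0.13 (SE 0.13, edgeR p 0.334, adjusted p 1). On TMM-scaled totals the interval in pair 1 reached down to 0.991.

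Among the genes of young projection neurons, Neurod6 had the largest log2 fold change of the 8, at 0.31, and also the widest spread (SE 0.72, edgeR p 0.469, adjusted p 1). It had 13563 and 6261 counts in Wt1_CKO, against 9647 and 5236 in Wt1_flfl, or 762 and 364 CPM in Wt1_CKO and 601 and 306 CPM in Wt1_flfl. Both replicate 1 libraries lay far above both replicate 2 libraries. The ratio of Wt1_CKO to Wt1_flfl was 1.29 in pair 1 (interval 1.25 to 1.32) and 1.20 in pair 2 (1.15 to 1.24). These ratios exceeded counting error, but they are each 1 library against 1 library, and the ratio between the 2 samples of a genotype was larger, at 2.10 (2.04 to 2.16) in Wt1_CKO and 1.95 (1.89 to 2.02) in Wt1_flfl for replicate 1 over replicate 2.

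Neurod2, which works beside Neurod6 in maturing cortical neurons, had 5617 and 3894 counts in Wt1_CKO, against 5014 and 3407 in Wt1_flfl. In CPM this was 316 and 226 in Wt1_CKO and 312 and 199 in Wt1_flfl. The replicate 1 libraries were nearly equal, with a ratio of 1.03 (interval 0.988 to 1.07), and in pair 2 the ratio was 1.14 (1.09 to 1.20). The fitted log2 fold change was 0.08 (SE 0.40, edgeR p 0.742, adjusted p 1).

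Bhlhe22, also called Bhlhb5, a repressor that shapes area identity of cortical neurons, had 1254 and 909 counts in Wt1_CKO, against 955 and 806 in Wt1_flfl, or 70.5 and 52.8 CPM in Wt1_CKO and 59.5 and 47.1 CPM in Wt1_flfl. Its ratios were 1.20 (interval 1.10 to 1.31) in pair 1 and 1.13 (1.02 to 1.24) in pair 2. The log2 fold change of Bhlhe22, 0.21 (SE 0.27), came with the smallest unadjusted edgeR p of the 8, 0.286 (adjusted p 1). With n = 2 per group an SE is itself imprecise.

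**Figure D3:**
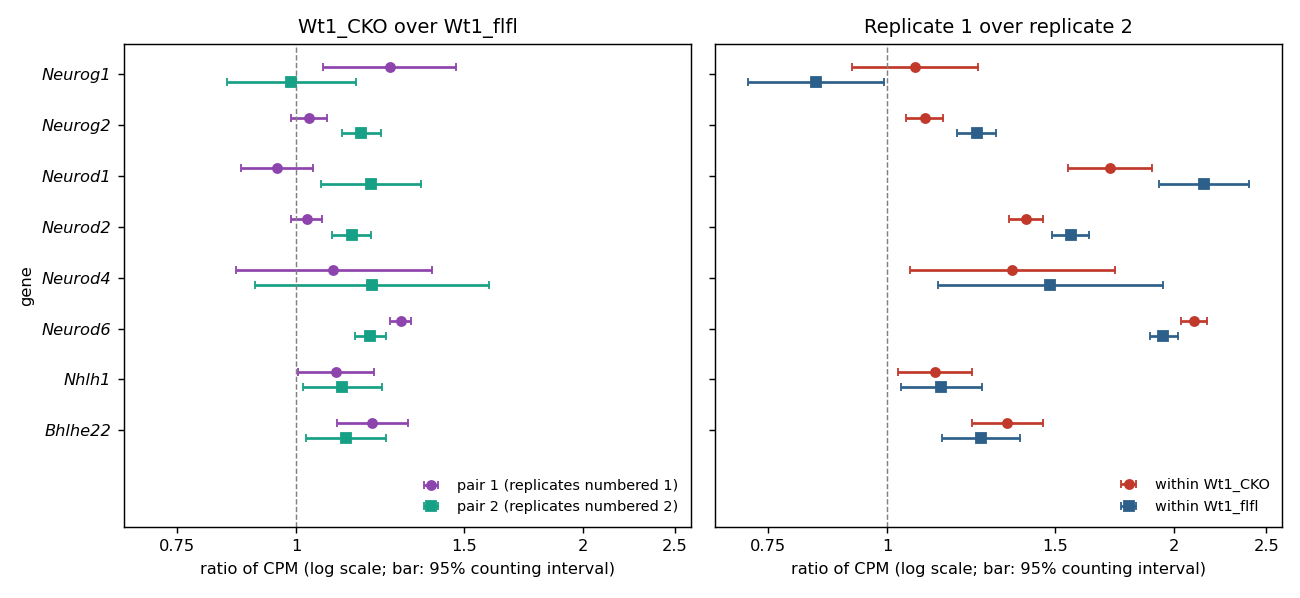
Ratio of CPM on listed library totals (x axis, log scale) for each gene (y axis), with 95% intervals that cover counting error only. The left panel sets Wt1_CKO over Wt1_flfl in pairs 1 and 2, where ratios run from 0.955 to 1.29. The right panel sets replicate 1 over replicate 2 within Wt1_CKO and within Wt1_flfl, where they run from 0.843 to 2.15.

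The authors' deposited tables test each pair by itself, 1 library against 1 library. The authors' deposited table for pair 1 gives an adjusted p under 0.05 for 3 of the 8 genes, Neurog1, Neurod6 and Bhlhe22, against 23.3% of all its genes. The authors' deposited table for pair 2 gives one for 5 of the 8, Neurog2, Neurod1, Neurod2, Neurod6 and Bhlhe22, against 19.2% of all its genes. All of these had a fold over 1 in Wt1_CKO, which together with that p held for 13.8% of genes in the authors' deposited table for pair 1 and 10.2% in that for pair 2. Neurod6 and Bhlhe22 thus stood in both, with an adjusted p of 2.37e-79 and 0.000129 in the authors' deposited table for pair 1 and of 5.4e-20 and 0.0468 in that for pair 2. None of the 8 carries the authors' mark of significance in the authors' deposited table of either pair, against 3.2% and 3.19% of all genes. A p-value from 1 library against 1 library also depends on how many counts a gene has. The shares of all genes were not matched for counts, so they do not measure enrichment. None of these p-values takes in the spread between samples of a genotype.

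That spread followed the sample number. Replicate 1 exceeded replicate 2 in both genotypes for 7 of the 8 genes, against 32.4% of all tested genes. For the same 7, all but Neurog1, both replicate 1 libraries lay above both replicate 2 libraries, against 25.0% of all tested genes. The median log2 difference of replicate 1 over replicate 2 for the 8 genes was 0.42 in Wt1_CKO and 0.45 in Wt1_flfl, against 0.00 over all tested genes in each genotype. Neurod1 differed by 1.71 times (interval 1.55 to 1.90) in Wt1_CKO, less than Neurod6, and by 2.15 times (1.93 to 2.40) in Wt1_flfl, more than Neurod6. Neurod2, Neurod4 and Bhlhe22 differed by 1.40, 1.35 and 1.34 times in Wt1_CKO, and by 1.56, 1.48 and 1.25 times in Wt1_flfl. The range over the 4 libraries, on the log2 scale, had a median of 0.62 for the 8 genes, against 0.38 for all tested genes and 0.28 for the 10140 that averaged 10 CPM or more. The ratio of Neurog2 was 1.10 in Wt1_CKO and 1.24 in Wt1_flfl, and that of Nhlh1 1.12 in Wt1_CKO and 1.14 in Wt1_flfl. Both had lower ratios than Neurod1, Neurod2, Neurod4, Neurod6 and Bhlhe22, but counting intervals did not separate them from all of these. In Wt1_flfl they were 1.184 to 1.302 for Neurog2 and 1.035 to 1.257 for Nhlh1. Those of Bhlhe22 and Neurod4 were 1.141 to 1.379 and 1.13 to 1.949. The labels do not say what the number stands for beyond the sample.

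Regional markers moved with the number as well. The list of 8 dorsal telencephalic genes, which were all tested, summed to 1776 and 1510 CPM on listed totals in Wt1_CKO replicates 1 and 2. In Wt1_flfl replicates 1 and 2 it summed to 1698 and 1308 CPM. Of its 8 genes, 5 were higher in replicate 1 in both genotypes, against 32.4% of all tested genes. The list of 9 ventral telencephalic and GABAergic genes ran the other way, with 1136 and 1594 CPM in Wt1_CKO and 1368 and 1812 CPM in Wt1_flfl. Of these 9, 0 were higher in replicate 1 in both genotypes, against the same 32.4%. By genotype, 5 of the 8 dorsal genes were higher in Wt1_CKO in both pairs, against 27.0% of all tested genes, and 0 lower, against 25.9%. Of the 9 ventral genes 8 were lower in both pairs, against 25.9% of all tested genes, and 0 higher, against 27.0%. No gene of either list passed edgeR's adjusted test or had an unadjusted p under 0.05, and no marker of either list was at 0. Markers of 2 other tissues that use members of this family were also measured. The cranial ganglion list, where Neurog1, Neurod1 and Neurod4 also act, summed to 64.5 and 87.1 CPM on listed totals in Wt1_CKO and to 89.0 and 105 CPM in Wt1_flfl, with Isl1, which ventral forebrain also expresses, at a mean of 81.9 CPM and the other 4 tested genes each under 2 CPM. The retina and eye list, 6 of whose 8 genes were listed, summed to 2.77 and 1.98 CPM in Wt1_CKO and to 3.08 and 10.9 CPM in Wt1_flfl. The part of these markers in the levels of the 8 bHLH genes was not tested.

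Genes outside the group with a like pattern over the 4 libraries were picked by distance. Among 10133 other genes averaging 10 CPM or more, those nearest to the mean profile of the 8 by Euclidean distance of centred log2 CPM over 4 libraries were Ubxn8, Spopl, Sp4, Cacna1e and Sesn1, at distances of 0.0420 to 0.0519. Those nearest to Neurod6 were Sh3gl2, Nfib, Cttnbp2, Dpy19l1 and Tiam2, at 0.0455 to 0.125. Nfib, a nuclear factor I gene of cortical development, had 615 and 294 CPM in Wt1_CKO, against 461 and 248 CPM in Wt1_flfl, the same order of libraries as Neurod6. Those nearest to Neurod1 were Gm12966, Cadm2, Cygb, Kctd12 and Ppp1r1b, at 0.0861 to 0.162. With 4 libraries such likeness is only a description.

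The partners of the 8 factors did not move as one. Of the 3 E proteins, Tcf4 had 475 and 321 CPM in Wt1_CKO, against 336 and 264 CPM in Wt1_flfl, giving a log2 fold change of 0.41 (SE 0.33, edgeR p 0.0974, adjusted p 1). Tcf3 had 335 and 376 CPM in Wt1_CKO, against 372 and 364 CPM in Wt1_flfl. Tcf12 had 221 and 205 CPM in Wt1_CKO, against 188 and 212 CPM in Wt1_flfl. Only Tcf4, 1 of the 3, was higher in Wt1_CKO in both pairs, against 27.0% of all tested genes. Lower in both were 0 of the 3, against 25.9%.

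The inhibitors gave no common direction. Of 10 Id, Hes and Hey genes, 0 passed edgeR's adjusted test and 0 had an unadjusted p under 0.05. Id4 and Hey1 were the higher in Wt1_CKO within each pair, against 27.0% of all tested genes, and Id3 and Heyl the lower, against 25.9%. The list's median log2 fold change was -0.03. Id2, a dimerization partner that removes E proteins, had 150 and 72.8 CPM in Wt1_CKO, against 151 and 70.0 CPM in Wt1_flfl. It split by sample number as Neurod6 did, and by genotype its log2 fold change was 0.02 (SE 0.76). Hes5, a Notch target of radial glia, ran the other way with the number, at 10.5 and 25.8 CPM in Wt1_CKO, against 12.9 and 22.5 CPM in Wt1_flfl.

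Genes known to lie downstream of neurogenins and Neurod factors were likewise divided. Of 14 tested, 0 passed edgeR's adjusted test and 0 had an unadjusted p under 0.05. Within each pair 6 lay above Wt1_flfl, against 27.0% of all tested genes, and 5 below it, against 25.9%. The median log2 fold change of the 14 was 0.03, against 0.01 over all tested genes. Eomes, the T-box factor of intermediate progenitors, had 180 and 141 CPM in Wt1_CKO, against 153 and 114 CPM in Wt1_flfl, giving a log2 fold change of 0.26 (SE 0.27). Rnd2, a small GTPase of neuronal migration that Neurog2 activates, had 201 and 155 CPM in Wt1_CKO, against 185 and 125 CPM in Wt1_flfl. Both were higher in Wt1_CKO within each pair, yet their genotype ranges overlapped. Dll1, the Notch ligand that neurogenins raise, had 97.9 and 102 CPM in Wt1_CKO, against 102 and 103 CPM in Wt1_flfl, and Insm1, a zinc finger gene of delaminating progenitors, had 139 and 145 CPM in Wt1_CKO, against 157 and 155 CPM in Wt1_flfl. The libraries of Dll1 lay within a narrow band, at a log2 fold change of -0.04 (SE 0.03, edgeR p 0.709). Those of Insm1 were lower in Wt1_CKO without overlap, as held for 13.5% of all tested genes. Its log2 fold change was -0.14 (SE 0.03, edgeR p 0.234), and neither gene passed. The libraries of Cbfa2t2 were higher in Wt1_CKO without overlap, as held for 13.4% of all tested genes. It had 96.01 and 94.19 CPM in Wt1_CKO, against 87.55 and 83.28 CPM in Wt1_flfl. Cbfa2t2 did not pass either, at a log2 fold change of 0.155 (SE 0.039, edgeR p 0.177).

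General markers of neurons and of their progenitors were set beside these. The list of 8 postmitotic neuron genes, which shares Dcx with the downstream list, summed to 5990 and 5552 CPM in Wt1_CKO and to 6354 and 6154 CPM in Wt1_flfl. Of these 8, 0 passed edgeR's adjusted test and 0 had an unadjusted p under 0.05. Within each pair 6 were lower in Wt1_CKO, against 25.9% of all tested genes, and 1 was higher, against 27.0%. The median log2 fold change of the list was -0.17, opposite in sign to the median of the 8 bHLH genes. The list of 8 radial glia genes summed to 2620 and 3003 CPM in Wt1_CKO and to 2580 and 2824 CPM in Wt1_flfl. Of its genes 0 passed and 0 had an unadjusted p under 0.05, and the median log2 fold change was 0.06. Within each pair 3 were higher in Wt1_CKO, against 27.0% of all tested genes, and 1 was lower, against 25.9%. The part of these markers in the bHLH levels was not tested.

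Other neural bHLH genes, among them proneural and Olig genes, leaned lower in Wt1_CKO. Of 12 listed for comparison 7 were tested, and 0 passed edgeR's adjusted test. An unadjusted p under 0.05 was found for 1, against 1.56% of all tested genes. In both pairs 6 were lower in Wt1_CKO, against 25.9% of all tested genes, and 0 higher, against 27.0%. The median log2 fold change of the 7 was -0.46. The one with an unadjusted p under 0.05 was Olig3, at 1.18 and 1.05 CPM in Wt1_CKO, against 11.3 and 9.18 CPM in Wt1_flfl (adjusted p 0.118). Nhlh2, the close relative of Nhlh1, had 45.2 and 35.3 CPM in Wt1_CKO, against 41.2 and 69.7 CPM in Wt1_flfl, higher in Wt1_CKO in pair 1 and lower in pair 2. Olig3 marks diencephalic progenitors among others. Of the 8 genes of the diencephalic list 7 were tested and 0 passed edgeR's adjusted test, and 3 had an unadjusted p under 0.05, against 1.56% of all tested genes. Within each pair 4 of the 7 were lower in Wt1_CKO, against 25.9% of all tested genes, and 0 were higher, with a list median of -0.82 for the log2 fold change. That list summed to 96.4 and 111 CPM on listed totals in Wt1_CKO and to 174 and 178 CPM in Wt1_flfl. Its part in the levels of these bHLH genes was not tested.

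For 6 of the 8 genes the fitted log2 fold change turned below 0 in at least 1 fit that left out a single library. Such a fit is unbalanced in the replicate numbers, so differences between those numbers enter its fold change. For Neurod6, replicate 1 over replicate 2 was 2.10 in Wt1_CKO and 1.95 in Wt1_flfl. With all 4 libraries and the replicate number as a block, all 8 genes stayed above 0. Neurod6 had a log2 fold change of -0.32 when Wt1_CKO replicate 1 was left out and 0.75 when Wt1_CKO replicate 2 was. It had one of 0.88 when Wt1_flfl replicate 1 was left out and -0.09 when Wt1_flfl replicate 2 was, against 0.31 with all 4. Neurod1 ran from -0.42 without Wt1_flfl replicate 2 to 0.69 without Wt1_flfl replicate 1. Neurod2 and Neurod4 also turned below 0 without Wt1_CKO replicate 1 and without Wt1_flfl replicate 2, Bhlhe22 without Wt1_CKO replicate 1 and Neurog2 without Wt1_flfl replicate 2. Neurog1 and Nhlh1 were above 0 in each of the 4 fits. Of the 8 genes, 3 were above 0 without Wt1_CKO replicate 1 and 3 without Wt1_flfl replicate 2, and all 8 in the other 2 fits. None of the 8 passed edgeR's adjusted test in any of these 4 fits. Without Wt1_flfl replicate 1 the log2 fold change of Neurod2 was 0.45, where all 4 libraries gave 0.08.

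**Figure D4:**
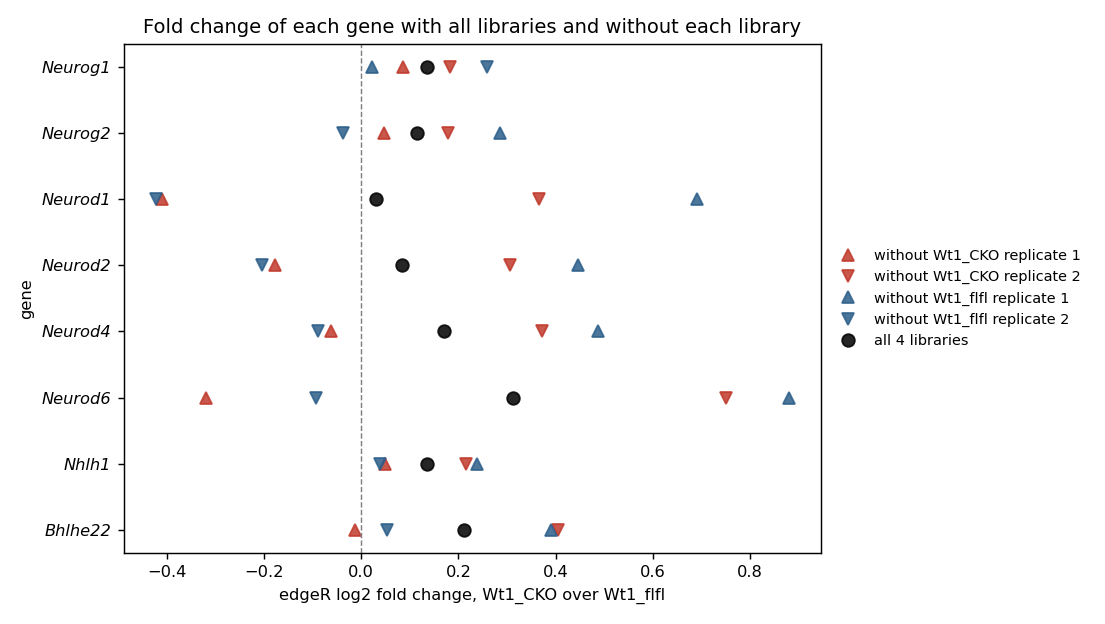
edgeR log2 fold change of Wt1_CKO over Wt1_flfl (x axis) for each gene (y axis), with all 4 libraries (black circles) and without each library in turn (triangles, red for a Wt1_CKO and blue for a Wt1_flfl library left out). Neurod6 runs from -0.32 to 0.88 and Neurod1 from -0.42 to 0.69, whereas Nhlh1 stays between 0.04 and 0.24.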

How the data were processed

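Each deposited table sets 2 same-numbered libraries side by side. As to software, the submitters' processing notes list Bowtie2 2.2.3, TopHat2 2.0.12, HTSeq 0.6.0 and mm9. The positions of all 8 genes nevertheless equal GENCODE M21 on GRCm38, the build used here. Per the file headers the authors deposited whole-number counts per gene. In the deposited CPM columns a count is divided by its library total. The authors' deposited fold ratio divides Wt1_CKO by Wt1_flfl CPM, and a deposited log2 column holds its logarithm. For the authors' deposited p-values the sources used here name no test.

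Genes listed in both tables entered edgeR 4.0.16 in R 4.3.3 as raw counts (filterByExpr with a minimum count of 10, TMM, quasi-likelihood F test with genotype as its term, Benjamini-Hochberg adjustment over all genes tested, threshold 0.05). The procedure was tried on simulated counts. SEs come from the SDs of log2 CPM, computed with 2 as prior count. Alternatives were a replicate block, omission of each library in turn, DESeq2's size factors, unscaled totals, other filters (none, or 50 counts), DESeq2 1.42.0, limma-voom (limma 3.58.1) and genes of either table. The 8 genes and the lists were chosen with earlier results of these data known. By rule, the text may name all 8 genes, any gene of the bHLH partner, inhibitor and downstream lists, the 3 most abundant genes of a marker list, and the 5 genes nearest to a profile. Some genes of the lists are not reported here.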

Additional observations from a re-analysis of the deposited data

How the results depend on the processing

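With genotype as the only term, 1 gene passed edgeR's adjusted test among 15933, and 249 had an unadjusted p under 0.05. The count of genes that passed was 42 with the replicate block and 5 with DESeq2, and it ran from 3 to 73 when 1 library was left out, where the lone sample is assumed to vary like the pair, with 73 when Wt1_flfl replicate 1 was omitted, 29 when Wt1_flfl replicate 2 was, 7 when Wt1_CKO replicate 2 was and 3 when Wt1_CKO replicate 1 was. Of the 8 bHLH genes 0 passed in the main test and under each of the 12 alternatives run. Same-numbered samples deviated together from their group means (correlation of 0.281 across 15933 genes, the same for both numbers by construction with n = 2), but no label ties the numbers to litters or days, so they are taken as names only. With the replicate block the log2 fold change of Neurod6 was 0.30 with an edgeR unadjusted p of 0.00606 and an adjusted p of 0.37, and it was the only one of the 8 with an unadjusted p under 0.05, as 1146 of all tested genes were. Leaving out 1 library gave log2 fold changes of -0.038 to 0.29 for Neurog2, -0.42 to 0.69 for Neurod1, -0.20 to 0.45 for Neurod2, -0.090 to 0.49 for Neurod4, -0.32 to 0.88 for Neurod6 and -0.014 to 0.40 for Bhlhe22, each turning below 0 in at least 1 fit, and 0.02 to 0.26 for Neurog1 and 0.04 to 0.24 for Nhlh1. Apart from those, the other alternatives kept the direction of all 8, and TMM-scaled totals kept the direction of every ratio within pairs. Fits without 1 library are unbalanced in the replicate numbers, so differences between those numbers enter their fold changes. How far those differences account for the changes in direction was not tested. With n = 2 per group, differences of the size seen between genotypes could not be told from the spread between samples.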
